A study of Mus musculus with 21 samples.

Results

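Withdrawal of the inhibitor pair called 2i was followed in 2 mouse embryonic stem cell (mESC) lines, D3 and A2, and the genes described here are those whose response to the withdrawal differed between the lines. The response of a line is its log2 change from ground-state cells to naive cells, and the difference of responses is the D3 change minus the A2 change, the interaction of line and stage. All genes that passed a filter on low counts entered, 16575 in number, and 12 of the 21 libraries of the series carry the comparison, 3 in each of 4 groups. D3 naive cells and A2 naive cells had been without 2i for 4 days, and D3 ground-state cells and A2 ground-state cells were kept with 2i throughout. All 4 groups shared a serum medium with the cytokine leukaemia inhibitory factor (LIF) at 1000 U/mL, antibiotics and 2-mercaptoethanol. The labels give neither the strain nor the sex of the lines and do not say whether the 3 libraries of a group came from separate cultures, so the p-values measure the spread between these libraries, which may be technical. With 1 line of each name, a difference between lines cannot be told apart from a difference between these particular stocks of cells.

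In mouse embryonic stem cells, 2i stands for an inhibitor of MEK, the kinase that activates ERK, together with an inhibitor of GSK3, the kinase that marks beta-catenin for destruction. With both present, ERK signalling is low, targets of beta-catenin and TCF factors are active, and the cells hold a uniform expression of naive pluripotency factors. Once the inhibitors are removed from cells in serum and LIF, ERK signalling returns, Wnt target genes lose their drive, DNA methylation rises and cells vary more in their naive factors, while LIF continues to act through the kinase JAK and the factor STAT3.

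Counts per library ranged from 17306036 to 22286752 over the 12 libraries. A principal component analysis placed 64.4% of the variance along stage and 16.5% along line, and the third component, with 4.4%, set D3 naive library 2 apart from the rest. D3 naive library 2 and A2 naive library 2 both differed more from their own replicates than the other libraries did, and without both of them 14 of the 52 named genes with a called interaction lost the call, as given beside those genes or in the counts of lost calls. Markers of pluripotent cells (Pou5f1, Sox2, Nanog, Zfp42, Esrrb, Dppa5a and Tdh) summed to between 5300 and 6340 CPM (counts scaled to the library size) in D3 naive, 6130 and 6670 in D3 ground, 5200 and 5760 in A2 naive, and 6690 and 7070 in A2 ground libraries. Those of fibroblasts and feeder cells summed to between 35.2 and 36.6 CPM in D3 naive, 23.5 and 26.4 in D3 ground, 36.4 and 43.0 in A2 naive, and 25.8 and 28.7 in A2 ground libraries, with 3 to 5 of the 20 members without a count in a group. These are libraries of whole cultures, in which a change in the share of cells of a state cannot be told apart from a change in the RNA of each cell.

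Most of the response was common to the lines. Withdrawal changed 8848 genes (53.4% of those tested) in D3, with 4340 higher (26.2%) and 4508 lower (27.2%) in naive cells, and 8449 genes (51%) in A2, with 4162 higher (25.1%) and 4287 lower (25.9%). Across the 16575 genes the log2 changes of the lines had a Pearson correlation of 0.839, a description over genes, which are not independent replicates. The slope of D3 on A2 was 0.895 and that of A2 on D3 was 0.788, so neither slope alone says which line changed more. The SD of the log2 changes over genes was 1.207 in D3 and 1.132 in A2. A response that differed between the lines was called for 518 genes (3.13%) by edgeR's quasi-likelihood test of the interaction at a Benjamini-Hochberg adjusted p below 0.05. The difference was positive, with the D3 change above the A2 change, for 254 of them (1.53%) and negative for 264 (1.59%). It was at least 2-fold for 174 genes (1.05%), 82 positive (0.495%) and 92 negative (0.555%). The median size of the difference was 0.79 on the log2 scale among the 518 genes and 0.201 among all tested.

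**Figure D1:**
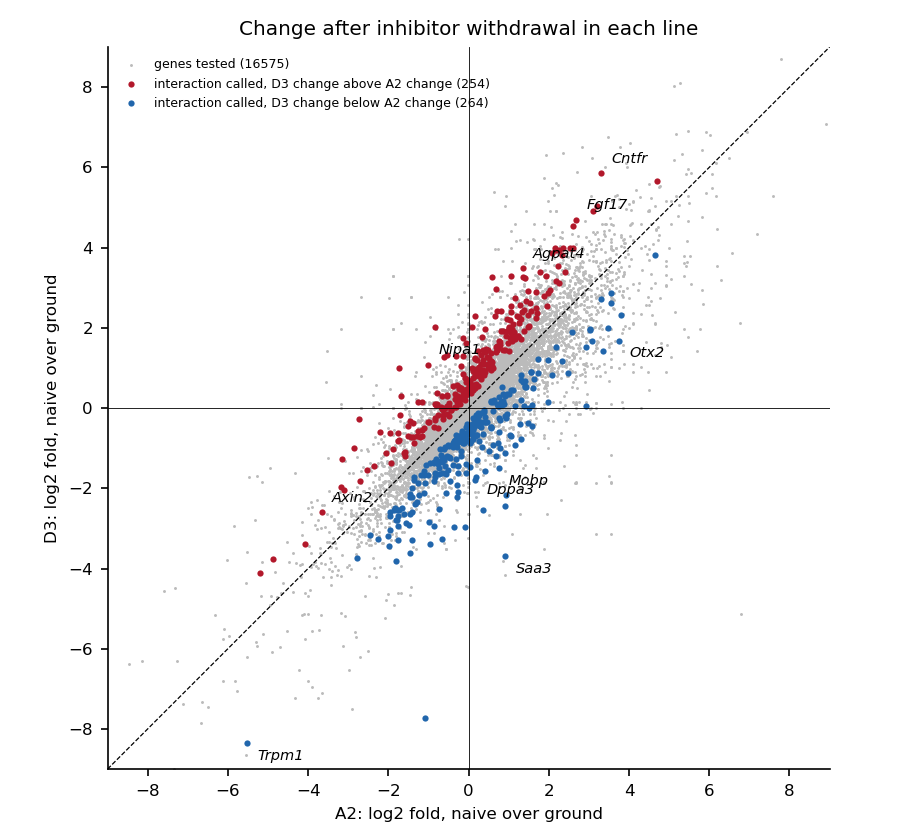
Log2 fold change of naive over ground-state cells in D3 (vertical) against A2 (horizontal) for each gene tested, with the 254 genes of positive interaction in red and the 264 of negative interaction in blue. Most genes lie along the dashed line of equal change, and the called genes flank it over its whole length, with Cntfr and Fgf17 above it and Otx2 and Trpm1 below it.

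The differing response was mostly one of size and not of direction. Of the 518 genes, 286 changed in the same direction in both lines, and 207 of these (72.4%) changed more in D3, 113 of them rising and 94 falling. Of all 6740 genes called in the same direction in both lines, with or without an interaction, 57.8% had the larger change in D3. A further 134 genes were called in D3 alone, with 60 risen and 74 fallen, and 64 in A2 alone, with 33 risen and 31 fallen. With or without an interaction, 2072 genes were called in D3 alone and 1673 in A2 alone. The lines went in opposite directions for 34 genes, of 36 with opposite calls among all genes tested. Of the 3745 genes called in exactly 1 line, 198 had a called interaction, beside 518 of all 16575 genes tested (3.13%). A call in 1 line alone was thus not the same as a called difference between the lines.

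The same genes can be sorted by the stage at which the lines stood apart. D3 and A2 differed in 4966 of the genes tested in naive cells (30%), with 2420 higher (14.6%) and 2546 lower (15.4%) in D3. In ground-state cells they differed in 3319 (20%), with 1509 higher (9.1%) and 1810 lower (10.9%) in D3. Of the 518 genes, 228 (44%) differed between the lines in naive cells without a call in ground-state cells. For these the lines are said here to have parted on withdrawal. Another 137 (26.4%) differed in ground-state cells without a call in naive cells, and for these the lines are said to have met. A missing call does not show that the levels were equal. The other 153 (29.5%) differed at both stages, by unequal amounts or with opposite sign. Over all genes tested, 2751 were called different in naive cells alone and 1111 in ground-state cells alone. Among the 518 genes the gap was larger in naive cells for 313 and larger in ground-state cells for 205.

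**Figure D2:**
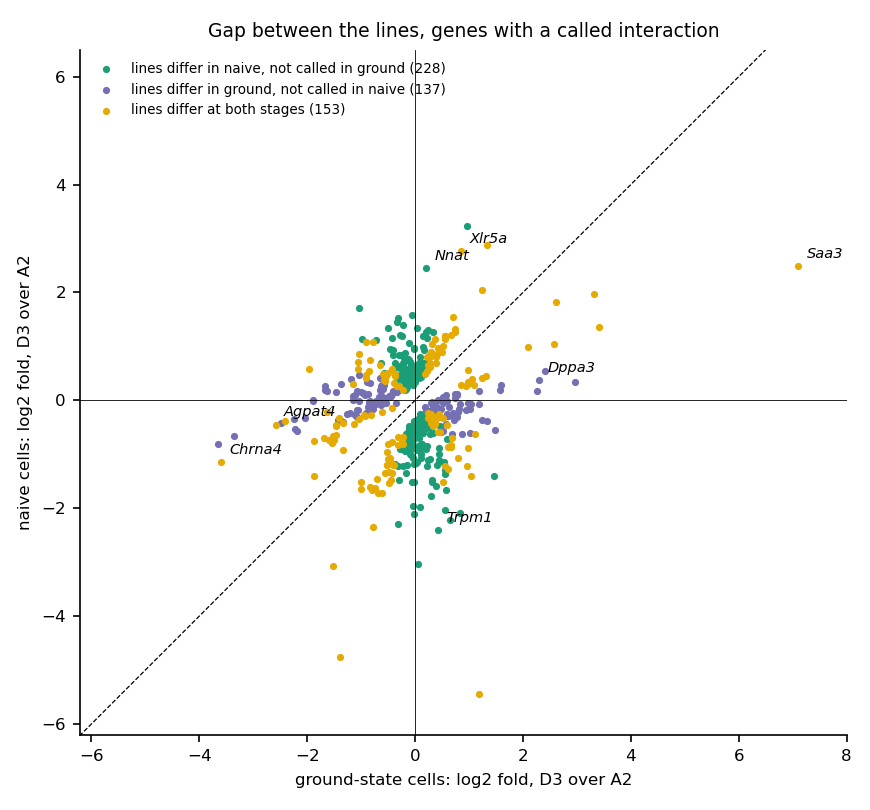
Log2 fold of D3 over A2 in naive cells (vertical) against that in ground-state cells (horizontal) for the 518 genes with a called interaction, coloured by the stage at which the lines were called different. The 228 genes called in naive cells alone lie along the vertical axis, where Nnat is high and Trpm1 low, and the 137 called in ground-state cells alone lie along the horizontal axis, where Dppa3 is far to the right.

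Among the genes whose lines parted on withdrawal, Trpm1, a cation channel of the TRP family known from melanocytes and retina, showed the largest fall of the genes named here. Its level was 0.457, 0.61 and 0.554 CPM in D3 naive libraries, against 182, 178 and 179 CPM in D3 ground libraries. In A2 it was 2.88, 3.33 and 2.49 CPM in naive libraries, against 140, 119 and 140 CPM in ground libraries. The ground-state levels of the lines were near each other, whereas every D3 naive library lay below every A2 naive library. The log2 change was -8.36 ± 0.29 (SE) in D3 and -5.52 ± 0.23 in A2, and the difference was -2.84 ± 0.46 (edgeR adjusted p = 0.00124, n = 3 libraries a group). Trpm1 (ENSMUSG00000030523) lies on the plus strand of GRCm38 chromosome 7, from 64153835 to 64269775.

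Nnat, an imprinted gene for a small membrane proteolipid of the developing brain, parted in the other direction. Its level was 12.2, 17.2 and 12.4 CPM in D3 naive libraries, against 1.32, 1.53 and 1.37 in D3 ground libraries. A2 naive libraries held 3.69, 2.3 and 1.75 CPM, against 1.23, 1.6 and 0.815 in A2 ground libraries. D3 naive libraries stood above all others and the ground-state libraries of the lines overlapped. The difference of responses was 2.23 ± 0.38 (edgeR adjusted p = 0.00131). Early primitive ectoderm-like (EPL) cells of the series had been without 2i for 4 days, with LIF at 330 U/mL and L-proline at 400 uM. In these EPL cells, whose levels are not in the contrast, Nnat reached 38.2 ± 1.7 CPM in D3 and 3.25 ± 0.94 in A2 (SD, n = 3). The gene (ENSMUSG00000067786) is on the plus strand of chromosome 2, from 157560078 to 157562522, and shares 4.76% of its exonic bases with a predicted gene on the opposite strand. The libraries do not mark the strand, so reads of such pairs cannot be told apart.

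Rusc2, which encodes a protein with RUN and SH3 domains that binds Rab GTPases, fell in D3 and was not called in A2. Its level was 7.89, 5.65 and 5.87 CPM in D3 naive libraries and 31.1, 32.3 and 27 in D3 ground libraries. In A2 the level was 27, 22.8 and 25.8 CPM in naive libraries and 33.6, 29.8 and 28.6 in ground libraries. D3 naive libraries alone were low. The change was -2.22 ± 0.17 in D3 and -0.28 ± 0.15 in A2, and the difference was -1.94 ± 0.23 (edgeR adjusted p = 2.6e-05). Nlrp4a, of the NLR family and known from the oocyte, fell in both lines and more in D3, with 0.572, 1.33 and 1.44 CPM in D3 naive libraries and 8.21, 8.92 and 8.76 in D3 ground libraries. A2 held 4.04, 5.39 and 4.92 CPM in naive and 8.42, 8.46 and 9.19 in ground libraries. The ground libraries of both lines overlapped, and the difference of responses was -2.09 ± 0.26 (edgeR adjusted p = 4.3e-05). Nlrp4a has close relatives in the genome, among which reads could be split.

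Xlr5c and Xlr5a, X-linked genes of a multicopy lymphocyte-regulated family, rose in D3 and were not called in A2. The lines differed at both stages for Xlr5a and in naive cells alone for Xlr5c. Xlr5a was at 8.8, 8.92 and 8.92 CPM in D3 naive libraries against 1.98, 2.23 and 2.41 in D3 ground libraries, and at 0.75, 2.01 and 1.07 CPM in A2 naive libraries against 1.32, 1.27 and 1.03 in A2 ground libraries. The A2 stages overlapped, while every D3 naive library exceeded every other. The difference was 1.91 ± 0.37 for Xlr5a (edgeR adjusted p = 0.00376) and 2.28 ± 0.51 for Xlr5c (edgeR adjusted p = 0.0131). Their gene models share 101 exonic bases on one strand and their sequences are alike, so the split of reads between them is uncertain. The Xlr5c call was lost without A2 ground library 3 (adjusted p = 0.0795).

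For other genes the gap was larger in ground-state cells and narrowed on withdrawal. Fgf17, Agpat4, Cntfr and Chrna4 were called different between the lines at both stages, and Otx2, Dppa3 and Magec2 in ground-state cells without a call in naive cells. Fgf17, a secreted fibroblast growth factor of the FGF8 subfamily, had the smallest adjusted p of the named genes. Its level was 72.7, 82.9 and 72.1 CPM in D3 naive libraries, against 2.79, 2.74 and 3.28 CPM in D3 ground libraries. In A2 it was 94.8, 109 and 93.9 CPM in naive libraries, against 14.8, 15.7 and 16.1 CPM in ground libraries. The log2 gap of D3 over A2 was -0.39 in naive cells and -2.41 in ground-state cells. The rise was 4.69 ± 0.11 in D3 and 2.68 ± 0.09 in A2, a difference of 2.02 ± 0.15 (edgeR adjusted p = 3.41e-08). Fgf17 (ENSMUSG00000022101) is on the minus strand of chromosome 14, from 70636203 to 70642268.

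**Figure D3:**
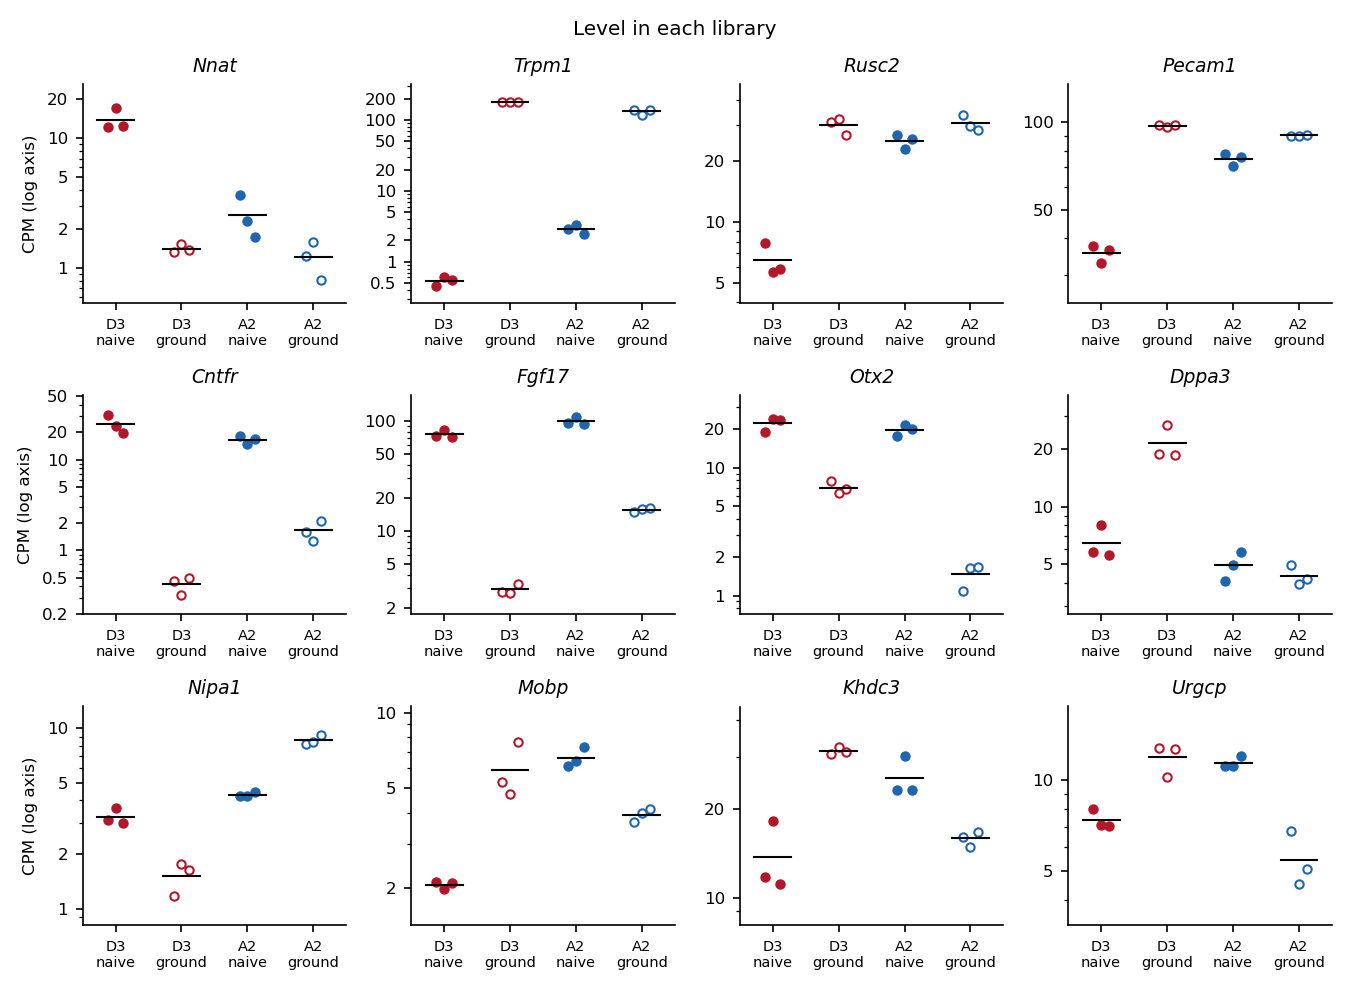
CPM on a log axis in each library of D3 naive, D3 ground, A2 naive and A2 ground cells for 12 genes, with points for libraries, filled for naive and open for ground-state cells, and a line at the mean. In the top row the naive groups stand apart more than the ground groups, in the middle row the ground groups stand apart more than the naive groups, and in the bottom row the lines change in opposite directions.

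Agpat4, an acyltransferase of phosphatidic acid synthesis, held 23.7, 29.2 and 24 CPM in D3 naive libraries and 2.23, 2.23 and 2.41 in D3 ground libraries. In A2 it held 34.0, 39.2 and 31.8 CPM in naive libraries and 13.4, 14.9 and 12.8 in ground libraries. The D3 ground libraries were the lowest, and the ground libraries lay below the naive libraries in both lines. Agpat4 rose by 3.48 ± 0.14 in D3 and 1.35 ± 0.11 in A2, and the difference of responses was 2.13 ± 0.18 (edgeR adjusted p = 1.7e-07). Cntfr, the receptor subunit that binds ciliary neurotrophic factor and passes its signal through the same chain as LIF, gave the largest positive difference of the genes named here with a call. It was at 31.1, 23.6 and 19.6 CPM in D3 naive libraries against 0.456, 0.325 and 0.493 in D3 ground libraries, and at 18, 14.9 and 16.8 CPM in A2 naive libraries against 1.61, 1.27 and 2.12 in A2 ground libraries. D3 was below A2 in every ground library and above it in every naive library. The rise was 58.0-fold in D3 and 9.89-fold in A2, with a log2 difference of 2.55 ± 0.39 (edgeR adjusted p = 0.000368).

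Otx2, which encodes a homeodomain protein that marks the epiblast after implantation, rose more in A2. Its level was 19.2, 24.3 and 23.9 CPM in D3 naive libraries, against 7.85, 6.32 and 6.84 in D3 ground libraries. The A2 level was 17.8, 21.5 and 20.1 CPM in naive libraries, against 1.09, 1.66 and 1.69 in ground libraries. The naive libraries of the lines overlapped, while all D3 ground libraries lay above all A2 ground libraries. The rise was 1.68 ± 0.12 in D3 and 3.76 ± 0.15 in A2, and the difference was -2.07 ± 0.21 (edgeR adjusted p = 1.69e-06). Otx2 (ENSMUSG00000021848) is on the minus strand of chromosome 14, from 48657677 to 48673819, where 3.98% of its exonic bases are shared with Otx2os1, transcribed from the opposite strand, and a predicted gene. In EPL cells Otx2 stood at 108 ± 8.3 CPM in D3 and 59.2 ± 2.5 in A2 (SD, n = 3).

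Dppa3, also called Stella, a maternal factor that protects imprints from demethylation and marks naive and germ cells, fell in D3 and was not called in A2. It was at 5.77, 8.03 and 5.59 CPM in D3 naive libraries, against 18.9, 26.8 and 18.8 in D3 ground libraries. A2 held 4.09, 4.95 and 5.8 CPM in naive libraries, against 4.97, 3.92 and 4.19 in ground libraries. Only the D3 ground libraries were set apart, and the naive libraries of the lines overlapped. The difference was -1.92 ± 0.25 (edgeR adjusted p = 6.85e-05), and the lines differed by 2.3 in ground-state cells (edgeR adjusted p = 9.31e-10). Dppa3 (ENSMUSG00000046323) is on the plus strand of chromosome 6, from 122626410 to 122630272.

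Chrna4, a subunit of the nicotinic acetylcholine receptor, and Magec2, an X-linked gene of the MAGE family, were high in A2 ground libraries and fell in A2. Chrna4 was at 0.572, 0.554 and 0.332 CPM in D3 naive and 0.355, 0.604 and 0.821 in D3 ground libraries, against 1.15, 0.931 and 1.17 in A2 naive and 7.19, 7.24 and 7.07 in A2 ground libraries. Its difference was 2.44 ± 0.53 (edgeR adjusted p = 0.00936), and the call was lost when both naive libraries numbered 2 were left out (adjusted p = 0.0654). Magec2 changed by -0.99 ± 0.22 in D3 and -2.86 ± 0.21 in A2, a difference of 1.87 ± 0.30 (edgeR adjusted p = 0.000769). Mt3, a metallothionein on chromosome 8, rose by 3.26 ± 0.29 in D3 and 1.35 ± 0.27 in A2, a difference of 1.90 ± 0.42 (edgeR adjusted p = 0.0105).

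Saa3, an acute-phase serum amyloid gene, had the largest called difference by size of the genes named here and rested on few reads in A2. It held 0.343, 1.39 and 0.665 CPM in D3 naive libraries and 9.47, 11 and 10.7 in D3 ground libraries, against 8 counts in all over the A2 naive and 4 over the A2 ground libraries. D3 fell by 3.69 on the log2 scale. The difference of -4.61 ± 1.05 (edgeR adjusted p = 0.0146) was not called without A2 naive library 2 (-3.32, adjusted p = 0.311) or without both naive libraries numbered 2 (-3.99, adjusted p = 0.192).

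In 34 genes the lines moved in opposite directions, and 27 of these passed the filters for named genes (a mean of 5 CPM in at least 1 group and D3 and A2 changes that did not overlap over library pairs). Nipa1, a magnesium transporter, rose in D3, where it was at 3.09, 3.6 and 2.99 CPM in naive libraries against 1.17, 1.77 and 1.64 in ground libraries. It fell in A2, with 4.21, 4.21 and 4.44 CPM in naive libraries against 8.23, 8.46 and 9.19 in ground libraries. Within each line the stages did not overlap. The change was 1.08 ± 0.18 in D3 and -1.01 ± 0.14 in A2, and the difference was 2.08 ± 0.23 (edgeR adjusted p = 1.18e-05). A gene on the opposite strand shares 14.9% of its exonic bases.

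Mobp, a structural protein of myelin, fell in D3 and rose in A2. Its level was 2.12, 1.99 and 2.1 CPM in D3 naive and 5.32, 4.74 and 7.61 in D3 ground libraries, against 6.11, 6.42 and 7.31 in A2 naive and 3.69, 3.98 and 4.13 in A2 ground libraries. The difference was -2.25 ± 0.32 (edgeR adjusted p = 0.000208). Khdc3, also known as Filia, a factor of the maternal complex and of genome stability in embryonic stem cells, was at 11.8, 18.2 and 11.1 CPM in D3 naive and 30.6, 32.4 and 31.1 in D3 ground libraries. In A2 it was at 23.2, 30.1 and 23.1 CPM in naive and 16.1, 14.9 and 16.7 in ground libraries. The stages again did not overlap within either line. The difference was -1.88 ± 0.27 (edgeR adjusted p = 0.000284), and a predicted gene on the same strand shares 38.5% of the exonic bases of Khdc3, so this value is uncertain between them.

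Urgcp, described as an upregulator of cell proliferation, changed by -0.69 ± 0.14 in D3 and 1.06 ± 0.14 in A2, a difference of -1.74 ± 0.20 (edgeR adjusted p = 1.68e-05). St6galnac2, a sialyltransferase, changed by -1.08 ± 0.22 in D3 and 0.51 ± 0.20 in A2, a difference of -1.59 ± 0.30 (edgeR adjusted p = 0.00294). Other genes fell in both lines from a higher start in D3 to a lower end, so that their order between the lines was reversed by withdrawal. Lrrc15, a leucine-rich repeat membrane protein, was at 1.54, 1.22 and 1.77 CPM in D3 naive and 16.6, 16.0 and 15.6 in D3 ground libraries, against 3.92, 3.63 and 4.44 in A2 naive and 8.56, 7.41 and 7.5 in A2 ground libraries. D3 was the higher line in every ground library and the lower in every naive library. Parm1, a mucin-like protein, and Slit2, a secreted guidance cue, had the same form, with differences of -2.17 ± 0.34 and -2.02 ± 0.33 (edgeR adjusted p = 0.000516 and 0.000702).

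No difference between the lines was called for 7 genes of the core pluripotency network. Nanog, Klf4, Esrrb and Prdm14 fell in both lines, Pou5f1 rose in D3 and was not called in A2, Sox2 rose in A2 and was not called in D3, and Zfp42 was called in neither. Pou5f1 had a difference of 0.24 ± 0.14, Sox2 of -0.11 ± 0.10, Nanog of -0.23 ± 0.12, Klf4 of 0.05 ± 0.14, Esrrb of -0.09 ± 0.15, Prdm14 of -0.11 ± 0.14 and Zfp42 of 0.28 ± 0.13, with edgeR adjusted p-values between 0.304 and 0.902. Nanog was at 415, 409 and 438 CPM in D3 naive and 876, 858 and 945 in D3 ground libraries, against 505, 541 and 492 in A2 naive and 906, 940 and 942 in A2 ground libraries. It fell by 1.09 in D3 and by 0.86 in A2. A p above the threshold does not show that the responses were alike. Tfcp2l1, a factor downstream of LIF, was just outside the call with -0.65 ± 0.19 (edgeR adjusted p = 0.0652), and it was called in 5 of 22 alternative analyses.

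Of 20 naive pluripotency factors tested, 5 had a called interaction (25%, beside 3.13% of all genes tested), 1 higher and 4 lower, and the list's median difference was -0.06, beside 0.01 for all genes tested. Dppa3, given above, and Pecam1 had the largest. Pecam1, an adhesion molecule of the inner cell mass and its stem cells, was at 37.5, 32.9 and 36.4 CPM in D3 naive libraries, against 98.2, 96.4 and 97.6 in D3 ground libraries. The A2 level was at 77.6, 70.6 and 76.1 CPM in naive libraries, against 89.8, 89.6 and 90.8 in ground libraries. It fell in both lines, and D3 naive libraries alone were far below the rest. The change was -1.45 ± 0.07 in D3 and -0.27 ± 0.07 in A2, a difference of -1.18 ± 0.10 (edgeR adjusted p = 1.4e-07).

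Tbx3, a T-box factor that holds back differentiation, fell by 1.37 in D3 and by 0.95 in A2 (difference -0.42 ± 0.10, edgeR adjusted p = 0.0242). Sox15 was not called in D3 (-0.08 ± 0.13) and rose in A2 by 0.61 ± 0.13 (difference -0.69 ± 0.18, edgeR adjusted p = 0.0384). Nr0b1, also called Dax1, a nuclear receptor that binds Oct4, rose by 1.11 ± 0.13 in D3 and by 0.39 ± 0.13 in A2 (difference 0.72 ± 0.19, edgeR adjusted p = 0.0378). The calls of Tbx3, Sox15 and Nr0b1 were lost under 7, 11 and 12 of 22 alternative analyses. Among 16 general pluripotency factors only L1td1, an RNA-binding protein, was called (6.25%, beside 3.13% of all genes tested). It was at 1170, 1040 and 1020 CPM in D3 naive and 761, 708 and 710 in D3 ground libraries, against 778, 694 and 785 in A2 naive and 690, 661 and 760 in A2 ground libraries. Its difference was 0.47 ± 0.12 (edgeR adjusted p = 0.0348), lost under 10 of 22 alternative analyses.

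Of 17 formative epiblast genes, those of the state that follows naive pluripotency, 16 rose in D3 and 15 in A2, beside 26.2% and 25.1% of all genes tested, and 1 fell in D3. A difference was called in 3 (17.6%, beside 3.13%). Sox4, an HMG-box factor, was at 14.5, 12.5 and 15.8 CPM in D3 naive and 1.27, 1.21 and 1.15 in D3 ground libraries, against 12.9, 8.67 and 10.8 in A2 naive and 1.94, 2.87 and 2.07 in A2 ground libraries. D3 was below A2 in the ground libraries and the naive libraries overlapped (difference 1.32 ± 0.28, edgeR adjusted p = 0.00776). A predicted gene on the opposite strand shares 54.6% of the exonic bases of Sox4, so its counts are uncertain. Otx2 was the only one of the list with a larger rise in A2 among those called. Fgf5, Pou3f1 and the de novo methyltransferases Dnmt3a and Dnmt3b had no called difference. Fgf5 had 49 counts over D3 naive, 1 over D3 ground, 28 over A2 naive and 6 over A2 ground libraries, too few to place its difference of 3.17 ± 1.52 (edgeR adjusted p = 0.335). None of 17 primed epiblast genes had a called interaction by edgeR or DESeq2, and 4 had an unadjusted edgeR p below 0.05 (23.5%, beside 14.8% of all genes tested).

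**Figure D4:**
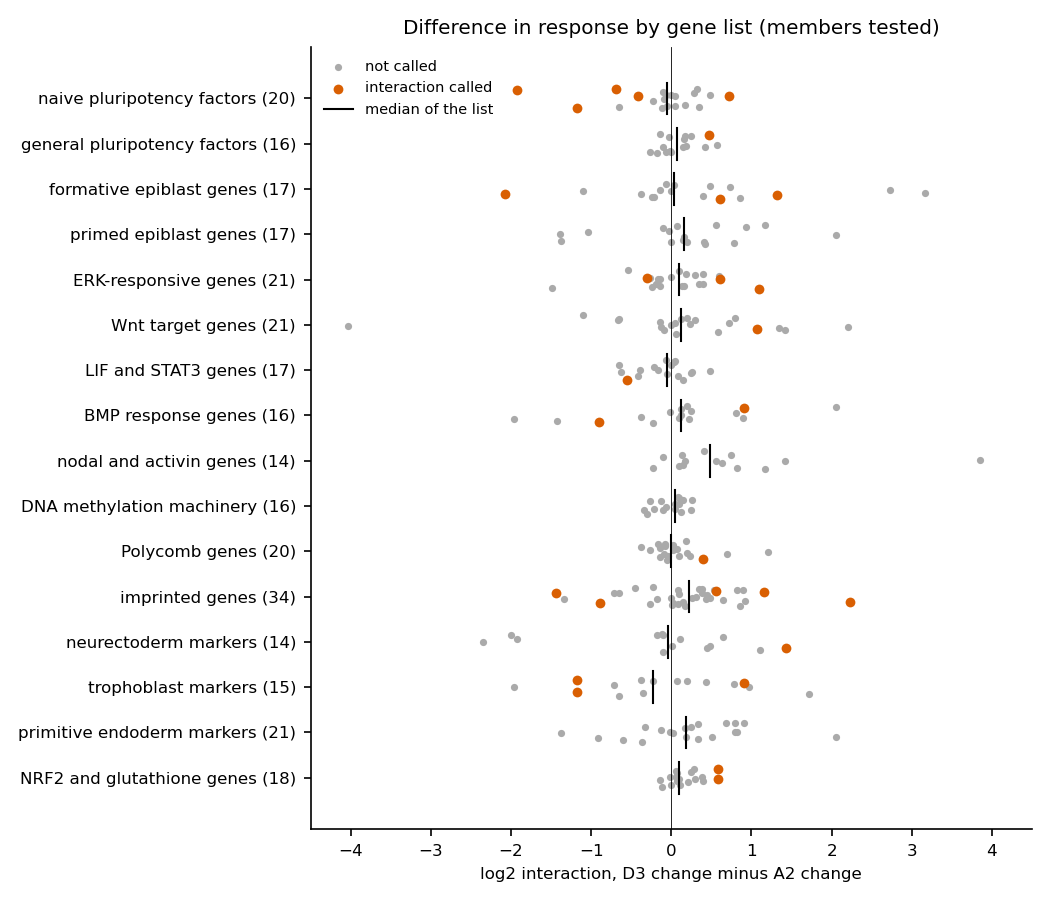
Log2 interaction, the D3 change minus the A2 change, for the members of 16 gene lists (number tested in brackets), with called members in orange, other members in grey and the list median as a bar. The largest called members are Otx2 and Dppa3 on the left and Nnat on the right, list medians stay between -0.23 and 0.49, and 1 uncalled member of the primitive endoderm list with few counts lies beyond the left edge of the axis.

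Of 21 genes that respond to ERK, 17 rose in each line, beside 26.2% of all genes tested in D3 and 25.1% in A2, and 2 fell in D3. The response differed in 3 (14.3%, beside 3.13%). Etv4, an ETS factor induced by FGF signalling, was at 199, 196 and 169 CPM in D3 naive libraries, against 60.5, 56.9 and 67.7 in D3 ground libraries. In A2 it was at 209, 217 and 203 CPM in naive libraries, against 104, 98.4 and 114 in ground libraries. Naive cells of the lines had an uncalled log2 gap of -0.16, D3 over A2, against -0.77 in ground-state cells. The difference of responses was 0.61 ± 0.12 (edgeR adjusted p = 0.0029). Dusp5, a nuclear phosphatase of ERK, rose more in D3 (difference 1.10 ± 0.29, edgeR adjusted p = 0.0368), and Spry2, an inhibitor of receptor tyrosine kinase signalling, rose more in A2 (difference -0.30 ± 0.08, edgeR adjusted p = 0.0477). The calls of Dusp5 and Spry2 were lost under 12 and 17 of 22 alternative analyses. Egr1, Dusp6 and Spry4, immediate targets and feedback inhibitors of the pathway, had differences of -0.27 ± 0.57, 0.16 ± 0.10 and 0.13 ± 0.16 (edgeR adjusted p from 0.461 to 0.873). Egr1 was at 63.2, 55.5 and 52.5 CPM in D3 naive and 0.962, 0.744 and 0.547 in D3 ground libraries, against 62.3, 54.5 and 58.8 in A2 naive and 0.757, 0.774 and 0.38 in A2 ground libraries. The lines overlapped at both stages.

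Of 21 Wnt target genes, 1 had a called difference (4.76%, beside 3.13% of all genes tested), Axin2, a negative-feedback target of beta-catenin. It was at 12.7, 9.03 and 11.1 CPM in D3 naive libraries, against 65.2, 75.2 and 57.0 in D3 ground libraries. A2 held 4.9, 4.02 and 4.73 CPM in naive libraries, against 66.7, 47.7 and 57.2 in ground libraries. The ground libraries of the lines overlapped and every D3 naive library stood above every A2 naive library. Axin2 fell by 2.59 in D3 and by 3.66 in A2, a difference of 1.07 ± 0.22 (edgeR adjusted p = 0.00776). In EPL cells it was at 8.89 ± 0.42 CPM in D3 and 4.6 ± 1.0 in A2 (SD, n = 3). Cdx1 and T, also targets of the pathway, had differences of 0.05 ± 0.42 and -0.00 ± 0.79, whose signs flipped under alternative analyses.

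Other signalling lists held few called members. Among 16 BMP response genes, 2 were called (12.5%, beside 3.13% of all genes tested). Id2, an inhibitor of basic helix-loop-helix factors, rose by 2.80 ± 0.12 in D3 and 1.89 ± 0.11 in A2 (difference 0.91 ± 0.16, edgeR adjusted p = 0.00179), and Smad6, an inhibitory SMAD, had a difference of -0.90 ± 0.21 (edgeR adjusted p = 0.0151). Among 17 LIF and STAT3 genes, 1 was called (5.88%), Jak3, a kinase of cytokine receptors, with -0.55 ± 0.15 (edgeR adjusted p = 0.0487). The Jak3 call was lost under 17 of 22 alternative analyses. In the retinoid list of 16, Rarg, a retinoic acid receptor, had a difference of 0.42 ± 0.12 (edgeR adjusted p = 0.0498), lost under 13 of 22 alternative analyses. None of 14 nodal and activin genes and none of 15 Notch pathway genes was called by edgeR, with list medians of 0.49 and -0.11. At an unadjusted edgeR p below 0.05 there were 5 nodal and activin genes (35.7%) and 1 Notch pathway gene (6.67%), beside 14.8% of all genes tested. DESeq2 called 2 of the nodal and activin genes and 1 of the Notch list, beside 748 of all 16575 genes tested. Those called included Inhbb, a subunit of activin, and Hes6, a HES family factor of the Notch list.

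Imprinted genes, which are expressed from one parental copy, had 5 called members of 34 (14.7%, beside 3.13% of all genes tested), 3 higher and 2 lower, with a list median of 0.21. Beside Nnat, Grb10, an adaptor that restrains insulin receptor signalling, rose more in A2. It was at 79.6, 61.0 and 82.1 CPM in D3 naive and 54.5, 50.2 and 50.1 in D3 ground libraries, against 252, 214 and 222 in A2 naive and 83.1, 82.3 and 93.7 in A2 ground libraries. D3 was lower at both stages, and the difference of responses was -0.89 ± 0.15 (edgeR adjusted p = 0.00124). Dio3, the deiodinase that inactivates thyroid hormone, fell more in D3 (difference -1.44 ± 0.33, edgeR adjusted p = 0.0163), and Slc22a18, a transporter of the organic cation family, rose more in D3 (1.16 ± 0.28, edgeR adjusted p = 0.0229). The Dio3 call was lost without D3 naive library 3 (-1.29, adjusted p = 0.0557) or A2 naive library 1 (-1.27, adjusted p = 0.0651), and the Slc22a18 call in 4 of the analyses that left out 1 library (D3 ground 1 or 2, A2 naive 1 or A2 ground 2; adjusted p up to 0.0776). Snrpn, a splicing protein gene of the Prader-Willi region, had a difference of 0.56 ± 0.13 (edgeR adjusted p = 0.0206). Of 20 Polycomb genes, 1 was called (5%, beside 3.13% of all genes tested), Cbx2, a reader of methylated histone (0.40 ± 0.11, edgeR adjusted p = 0.0435). Its call was lost under 13 of 22 alternative analyses. None of 16 genes of the DNA methylation machinery was called by edgeR or DESeq2. An unadjusted edgeR p below 0.05 was found for 1 of them (6.25%, beside 14.8% of all genes tested).

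Lineage markers differed at single genes. Of 15 trophoblast markers, 3 were called (20%, beside 3.13% of all genes tested). Tfap2c, an AP-2 factor shared by trophoblast, germ cells and naive cells, was at 31.8, 30.5 and 30.1 CPM in D3 naive libraries, against 34.2, 37.3 and 38.3 in D3 ground libraries. A2 held 78.5, 74.9 and 81.3 CPM in naive libraries, against 43.3, 38.3 and 41.5 in ground libraries. It fell slightly in D3 and rose in A2, a difference of -1.18 ± 0.14 (edgeR adjusted p = 2.44e-05). Its relative Tfap2a fell in both lines and more in D3 (-1.18 ± 0.24, edgeR adjusted p = 0.00629; -0.90 without A2 naive library 3, adjusted p = 0.0507), and Id2, which is also in the BMP list, was the third. Of 14 neurectoderm markers, 1 was called (7.14%, beside 3.13% of all genes tested), and the list's median difference was -0.04. The median change of the list was 0.77 in D3 and 1.23 in A2, and 7 members rose in each line. The called member, Sox1, the earliest factor of the neural plate, rose in D3 and was not called in A2. It was at 19.1, 13.7 and 13.0 CPM in D3 naive and 7.09, 5.39 and 6.13 in D3 ground libraries, against 7.96, 6.52 and 9.11 in A2 naive and 7.99, 10.1 and 7.72 in A2 ground libraries. The summed neurectoderm markers were between 376 and 413 CPM in D3 naive, 206 and 231 in D3 ground, 255 and 261 in A2 naive, and 163 and 164 in A2 ground libraries. The Sox1 difference was 1.43 ± 0.24 (edgeR adjusted p = 0.00124). The part of a neural cell fraction in it was not tested.

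No member of the primitive endoderm (21 tested), mesendoderm (16), germline (28), 2-cell-like (18), fibroblast and feeder (20), collagen (20), Hox cluster (27) or MHC class I (15) lists had an interaction called by edgeR, and likewise none of the hypoxia (15), ATF4 and amino acid response (24), G1 cyclin (20), YAP and SRF target (18) and methionine and serine cycle (23) lists, nor of the Y-linked (6) and X-inactivation (10) genes. Over all 19 lists without an edgeR call, which include the primed epiblast, nodal, Notch and DNA methylation lists, 58 of 343 memberships (16.9%, beside 14.8% of all genes tested) had an unadjusted edgeR p below 0.05, and none did in the fibroblast and feeder or the MHC class I list. DESeq2 called 10 of the 343, beside 748 of all 16575 genes tested. Of the 10, 3 were of the 28 germline genes (Brdt, Dazl and Sycp3). Few members were called in the lists of metabolism and stress. Of 18 NRF2 and glutathione genes, 2 were called (11.1%, beside 3.13% of all genes tested). Hmox1, the haem-degrading oxygenase, and Srxn1, a reductase of peroxiredoxins, both NRF2 targets, rose more in D3 (0.58 ± 0.10 and 0.58 ± 0.15, edgeR adjusted p = 0.00105 and 0.0404). Hmox1 was at 285, 283 and 255 CPM in D3 naive and 88.9, 87.3 and 83.4 in D3 ground libraries, against 104, 114 and 112 in A2 naive and 54.4, 49.8 and 51.3 in A2 ground libraries. D3 exceeded A2 at both stages. Hmox1 kept its call in all 22 alternative analyses, and Srxn1 lost it under 9, among them the replicate block within each line (adjusted p = 0.0553). Pfkm, a muscle-type phosphofructokinase (-0.47 ± 0.10, edgeR adjusted p = 0.00944), Ebp, a sterol isomerase (0.66 ± 0.16, edgeR adjusted p = 0.0237), Perp, a p53 target of cell junctions (1.12 ± 0.22, edgeR adjusted p = 0.00549), Oas1a, an interferon-induced synthetase (-0.99 ± 0.17, edgeR adjusted p = 0.00126), and Cldn4, a tight-junction claudin (-0.72 ± 0.19, edgeR adjusted p = 0.038), were the others. Each of them was the only called member of its list, at 4.17% to 5% of the members tested. The Cldn4 call was lost under 14 of 22 alternative analyses, 11 of them leaving out 1 library, and the Ebp call under 6, 5 of them leaving out 1 library. The Perp call was lost when both naive libraries numbered 2 were left out (1.09, adjusted p = 0.0544).

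Genes with a differing response gathered on chromosome 8. Of 864 genes tested there, 50 were called (5.79%, against 2.98% of the 15711 genes elsewhere), 41 higher and 9 lower. The median difference on chromosome 8 was 0.14 on the log2 scale, against 0 elsewhere, and 70.3% of its genes had a positive difference, against 49.8% elsewhere. The median change of chromosome 8 genes on withdrawal was 0.08 in D3 and -0.06 in A2. The positive median was seen in each of 4 consecutive segments along its length, from 0.10 to 0.16. Among the 41 higher genes were Mt3, Sox1 and Hmox1, given above, whose own differences were larger than this median.

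The chromosome also stood apart between the lines before withdrawal. The median gene of chromosome 8 was 1.34-fold higher in D3 than in A2 in naive cells and 1.23-fold higher in ground-state cells. Taken library by library over genes that averaged 5 CPM or more, less the autosome median, the D3 excess was 0.46, 0.44 and 0.43 on the log2 scale in the naive libraries and 0.32, 0.30 and 0.30 in the ground libraries. Each value is set against the A2 mean of its stage, and the naive values did not overlap the ground values. Chromosome 1 had the opposite gap, with D3 naive libraries at -0.45, -0.49 and -0.43 and D3 ground libraries at -0.40 in all 3, and a median difference of responses of -0.036. On the remaining autosomes and the X chromosome these values, medians of whole chromosomes, lay between -0.15 and 0.07. A part of chromosome 14 stood further apart. From 80 to 120 Mb (46 genes tested) its median log2 gap of D3 over A2 was -0.75 in ground-state and -0.58 in naive cells. The median difference of responses there was 0.01. On the Y chromosome, with 13 genes tested and no call, the median gap was 0.865 in ground-state and 1.246 in naive cells. On chromosome 1, 35 of 1025 genes were called (3.41%, beside 3.13% of all genes tested), 13 higher and 22 lower. DNA copy number was not measured here, and its part in the result was not tested.

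**Figure D5:**
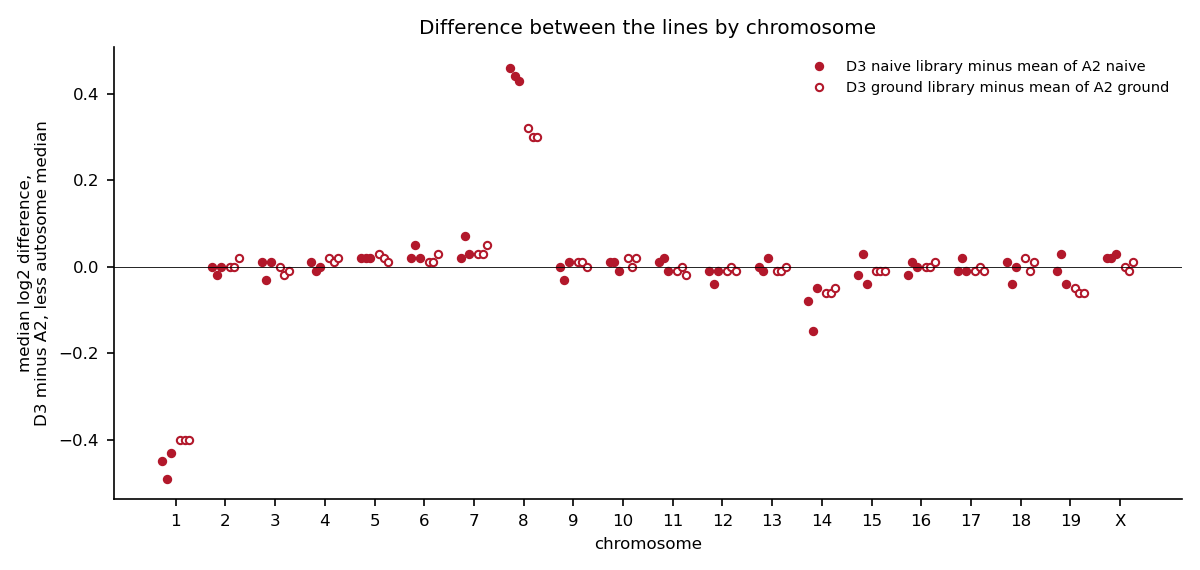
Median log2 difference of each D3 library from the mean of the A2 libraries of its stage, by chromosome, less the median over autosomes, with filled points for naive and open points for ground-state libraries. Chromosome 8 is higher in D3 at both stages and more so in naive cells (0.43 to 0.46 against 0.30 to 0.32), chromosome 1 is lower in D3 at both, and the others lie near 0.

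EPL libraries of both lines give a view of the same genes in cells whose levels are not in the contrast, although they share in the model's estimate of spread. Of the 228 genes whose lines parted in naive cells, 175 (76.8%) had a gap of the same sign in EPL cells, and in 123 (53.9%) the EPL libraries of the lines also did not overlap. Among all 2751 genes called different in naive and not in ground-state cells, the shares were 75.1% and 42%. For the 137 genes whose lines met in naive cells, the ground-state gap had the same sign in EPL cells in 62 (45.3%), beside 56.5% of the 1111 such genes over all tested. Pecam1 was at 18.1 ± 1.2 CPM in D3 and 38.9 ± 2.0 in A2 EPL cells, and Rusc2 at 3.85 ± 0.42 CPM in D3 and 13.5 ± 0.66 in A2 EPL cells, with D3 the lower line as in naive cells. Fgf17 was at 17.4 ± 1.1 CPM in D3 and 71.7 ± 4.7 in A2 EPL cells, a gap that was wider than in naive cells (SD, n = 3 for each).

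The sequence before the start was searched for motifs of the factors that the inhibitors and LIF act on, in the 250 bases upstream of the genes with the largest differences, 19 of 23 of which have a RefSeq promoter entry on GRCm38.p6. The motifs, read on both strands, were CTTTGA for TCF and LEF factors, CCGGAAG for ETS factors, TTCNNNGAA for STAT factors and CACGTG, an E-box. Each occurred in 1 of the 19 promoters, against 10.8%, 12.7%, 5.78% and 8.27% of the 11954 promoters of all genes tested. The 4 promoters with a match follow, with the match in capitals. They are Trpm1 (chr7:64153585-64153834, plus strand) with CTTTGA on the opposite strand, Xlr5a (chrX:73117703-73117952, minus strand) with 4 overlapping matches of CCGGAAG in 2 repeats, Xlr5c (chrX:73290516-73290765, minus strand) with TTCNNNGAA, and Urgcp (chr11:5762377-5762626, minus strand) with CACGTG, and a match is a description of the letters alone.
Trpm1: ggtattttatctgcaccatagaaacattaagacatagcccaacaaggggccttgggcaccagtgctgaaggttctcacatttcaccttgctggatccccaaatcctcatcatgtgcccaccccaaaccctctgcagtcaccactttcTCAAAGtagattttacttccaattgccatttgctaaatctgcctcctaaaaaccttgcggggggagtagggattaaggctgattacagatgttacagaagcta
Xlr5a: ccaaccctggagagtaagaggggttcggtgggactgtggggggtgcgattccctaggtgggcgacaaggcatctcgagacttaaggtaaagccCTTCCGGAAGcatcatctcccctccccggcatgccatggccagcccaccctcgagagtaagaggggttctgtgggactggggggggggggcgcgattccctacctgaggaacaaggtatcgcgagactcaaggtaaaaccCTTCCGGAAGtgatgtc
Xlr5c: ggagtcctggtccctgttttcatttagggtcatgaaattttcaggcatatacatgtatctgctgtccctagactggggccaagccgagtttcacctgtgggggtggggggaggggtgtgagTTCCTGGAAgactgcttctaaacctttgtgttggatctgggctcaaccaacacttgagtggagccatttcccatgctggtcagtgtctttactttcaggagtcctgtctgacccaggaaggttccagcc
Urgcp: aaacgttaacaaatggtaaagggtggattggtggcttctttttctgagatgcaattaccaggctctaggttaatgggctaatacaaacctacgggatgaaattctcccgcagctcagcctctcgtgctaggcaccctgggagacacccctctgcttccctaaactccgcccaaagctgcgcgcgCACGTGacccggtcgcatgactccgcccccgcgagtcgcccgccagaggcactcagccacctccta
Over all called genes the share with CTTTGA was 11.5% of the 191 higher and 13.1% of the 214 lower genes with a promoter entry, and that with CCGGAAG was 8.38% and 7.94%. For TTCNNNGAA the shares were 5.24% and 5.14%, and for CACGTG 4.19% and 8.88%; none of these differences was tested.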

How the data were processed

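The deposited values are raw counts: the authors counted reads in each library over 39396 Ensembl gene identifiers. HISAT2, SAMtools, featureCounts and the build GRCm38 are named in the submitters' processing notes, whereas no version and no strand setting is stated in the sources used here. Libraries were made, per the labels' protocols, with an Illumina TruSeq kit that leaves strand unmarked. Every identifier matched GENCODE M21, the source of coordinates, and no column of values was left unused.

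One edgeR 4.0.16 quasi-likelihood model (R 4.3.3; TMM scaling, robust, filterByExpr with a minimum count of 10) was fitted to all 21 libraries in 7 groups, so that the 4 groups compared shared its estimate of spread, and 16575 genes were tested. The contrast was (D3 naive minus D3 ground) minus (A2 naive minus A2 ground). Adjustment was by Benjamini-Hochberg across the genes tested, with calls at an adjusted p below 0.05. CPM are TMM-scaled, and ± is the SE for log2 values and the SD for CPM. The SE is approximate, being the size of the log2 value divided by the square root of the F statistic of its quasi-likelihood test. Members and lists were chosen with earlier results of these data known, and lists were described by counts and medians with no set test. Named genes were the 10 largest differences in each direction and the 5 largest with opposite responses among called genes that reached a mean of 5 CPM in a group and whose responses did not overlap over library pairs, without clone, predicted and pseudogene names. Up to 4 called members of each list and a set of pluripotency and pathway genes were added; 1 gene so chosen is not reported here. No pairing of libraries was modelled. Alternatives were RLE size factors, total-count scaling, other filters, the 12 libraries alone, a replicate block, DESeq2 1.42.0 and leaving out libraries.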

Additional observations from a re-analysis of the deposited data

Results flagged for a closer look

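The test of the interaction itself separated the response of D3 from that of A2 for 518 genes, which is what brings the named genes here; the log2 difference is the D3 change minus the A2 change. Among the named genes with a call, the largest negative differences were Saa3 -4.61, Trpm1 -2.84, Lrrc15 -2.43, Mobp -2.25, Parm1 -2.17, Nlrp4a -2.09 and Otx2 -2.07. They were followed by Slit2 -2.02, Rusc2 -1.94, Dppa3 -1.92, Khdc3 -1.88, Urgcp -1.74, St6galnac2 -1.59 and Dio3 -1.44. Beyond these came Pecam1 -1.18, Tfap2c -1.18, Tfap2a -1.18, Oas1a -0.99, Smad6 -0.90 and Grb10 -0.89. The smallest negative differences were Cldn4 -0.72, Sox15 -0.69, Jak3 -0.55, Pfkm -0.47, Tbx3 -0.42 and Spry2 -0.30. The largest positive differences among them were Cntfr 2.55, Chrna4 2.44, Xlr5c 2.28, Nnat 2.23, Agpat4 2.13, Nipa1 2.08 and Fgf17 2.02. Next came Xlr5a 1.91, Mt3 1.90, Magec2 1.87, Sox1 1.43, Sox4 1.32, Slc22a18 1.16 and Perp 1.12. Positive differences were also found for Dusp5 1.10, Axin2 1.07, Id2 0.91, Nr0b1 0.72, Ebp 0.66, Etv4 0.61 and Hmox1 0.58. The smallest positive differences were Srxn1 0.58, L1td1 0.47, Rarg 0.42 and Cbx2 0.40. Groups of 3 libraries were not tested for a single outlying library. Why the lines differ at these genes was not tested.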

How the results depend on the processing

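All 518 genes kept the sign of their difference in each of the 22 alternative analyses in which they were tested, and 32 of the 52 named called genes kept their call in all of them. These analyses reuse the libraries that gave the calls, so a kept sign is not separate support. Without A2 ground library 3, 306 of the 518 (59.1%) were still called, the lowest share among them. The number of called genes moved more. Without a filter on low counts it was 846 (426 higher, 420 lower, 287 at least 2-fold), and DESeq2 called 748 (424 higher, 324 lower). Leaving out 1 library at a time gave 316 to 524 genes, 153 to 293 higher and 156 to 248 lower; the count fell by more than 1.5 times without D3 ground library 2 (318), A2 naive library 1 (325), A2 naive library 3 (333) or A2 ground library 3 (316), with fewer libraries behind each mean. With both naive libraries numbered 2 left out, chosen after the data were seen, 386 were called, 343 of them among the 518. Scaling to total counts gave 197 higher and 285 lower. The chromosome 8 median was 0.155 with RLE factors, 0.104 with total counts, 0.108 without the filter, 0.155 with DESeq2 and 0.132 to 0.162 leaving out 1 library. Uncalled differences changed sign for Spry4 (-0.00 to 0.20 leaving out 1 library), Cdx1 (-0.45 to 0.31 leaving out 1 library, -0.20 without both libraries numbered 2) and T (-0.33 to 0.36 leaving out 1 library, 0.01 with RLE, without the filter and with DESeq2, 0.00 with the 12 libraries alone); the cause was not tested.

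The series calls its samples paired without saying how. Same-numbered libraries correlated in their deviations from group means by -0.141 to 0.363, below 0.1 in most pairs. The largest values lay between the naive libraries of the lines, 0.363 for number 2 and 0.177 for number 1. Naive libraries of unlike number in the lines gave -0.279 to 0.166. Not every library correlated best with its own number, so the numbers were not taken as pairs. A deviation shared by the naive libraries numbered 2 was therefore not modelled in the main fit. A replicate block over all libraries gave 462 interaction genes, and a replicate block within each line 383, of which 374 were among the 518. Because the block within each line is nested in the line, the gap between lines was there estimated at replicate 1 and not between group means. By that measure the lines differed in 2672 genes in naive cells (1286 higher, 1386 lower) and 1839 in ground-state cells (759 higher, 1080 lower). These counts are not of the same quantity as those of the main fit. Differences of genes with few counts, such as Saa3 in A2 and Fgf5, are limited by depth.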
